A study of Homo sapiens with 6 samples.

Results

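The IGF binding proteins (IGFBP1 to IGFBP7) and the pappalysins PAPPA and PAPPA2 were followed in BT-549, a human line from a triple negative breast tumour, under exposure to adipocyte secretions. The 9 genes were taken by symbol, all 9 were found among the 63140 genes of the deposited files, and the rule uses no measured value. The set itself was chosen with earlier results of these data known. RNA was sequenced from 3 cultures grown in adipocyte-conditioned medium (ACM) and 3 grown in unconditioned medium (UCM), each for 24 h. All 6 cultures are wild-type BT-549 cells, a line that is kept in RPMI-1640 with 10% serum and 0.8 µg/mL insulin. ACM had been held on differentiated OP9 mouse adipocytes in a medium containing insulin and oleate. The sample labels give 50% ACM, whereas the paper's supplement describes undiluted ACM for these cultures, and the formula of UCM is not given in the sources used here. Base medium, serum, insulin, oleate and adipocyte secretions can therefore not be told apart as sources of a difference between the groups.

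IGFs are small secreted growth factors that act through the receptor IGF1R. IGFBPs are secreted carriers that hold IGFs away from that receptor or deliver them to the cell surface, and IGFBP7 is a relative that binds IGFs only weakly. Pappalysins are secreted metalloproteases that cut selected IGFBPs and so free the bound IGF. PAPPA cuts IGFBP4 best when IGF is bound to it, and also cuts IGFBP2 and IGFBP5, whereas PAPPA2 prefers IGFBP3 and IGFBP5. Stanniocalcins (STC1 and STC2) are secreted glycoproteins that inhibit the pappalysins.

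Promoter sequence is shown for the member with the most mRNA, IGFBP3, and for 3 members that were higher in ACM, IGFBP4, PAPPA and PAPPA2. Each is the 150 bases before the RefSeq start site, 5′ to 3′ on the strand of the gene, taken from RefSeq in build GRCh38.p14. Capitals mark any match, on either strand, to a TATA box (TATANA), a GC box (GGGCGG), an ATF4 composite element (TGATGNAA), an AP-1 site (TGANTCA), a FOXO site (GTAAACA) or an NF-κB site (3 G bases, any 3 bases, then TTCC), and matches may overlap.
IGFBP3, minus strand, chr7:45921273-45921422: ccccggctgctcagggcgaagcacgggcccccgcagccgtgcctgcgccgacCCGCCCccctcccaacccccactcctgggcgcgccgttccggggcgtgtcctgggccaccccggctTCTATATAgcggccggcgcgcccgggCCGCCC
IGFBP4, plus strand, chr17:40443300-40443449: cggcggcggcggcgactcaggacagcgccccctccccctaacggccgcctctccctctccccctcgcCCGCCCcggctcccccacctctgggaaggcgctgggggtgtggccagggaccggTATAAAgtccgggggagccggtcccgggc
PAPPA, plus strand, chr9:116153641-116153790: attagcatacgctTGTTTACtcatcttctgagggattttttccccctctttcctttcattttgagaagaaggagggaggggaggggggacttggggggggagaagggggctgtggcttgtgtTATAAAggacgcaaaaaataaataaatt
PAPPA2, plus strand, chr1:176463025-176463174: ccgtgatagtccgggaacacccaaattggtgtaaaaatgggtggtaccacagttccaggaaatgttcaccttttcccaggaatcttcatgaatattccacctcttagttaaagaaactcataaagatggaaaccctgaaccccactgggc

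IGFBP3, IGFBP4 and PAPPA each held a TATA box letter match, beginning 28 bases before the start site in PAPPA, 29 in IGFBP4 and 30 in IGFBP3 (a second, overlapping match of IGFBP3 began at 32). Over the 250 bases before the start, 17.7% of all 35116 RefSeq windows held such a match. GC box letters stood in IGFBP3 and IGFBP4, as in 42.6% of all windows, and the FOXO letters stood in PAPPA, as in 2.98%. Among the members whose sequence is not shown, IGFBP6 also held the FOXO letters, and IGFBP2 and IGFBP6 held GC box letters. The PAPPA2 window held none of the 6 motifs and had the lowest GC content of these 4, at 42.8%, against 48.0% in PAPPA, 71.6% in IGFBP4 and 76.0% in IGFBP3. The ATF4 and AP-1 letters, held by 3.14% and 6.57% of all windows, were in none of the 9 windows that belong to the members, and the NF-κB letters, held by 5.67%, were in the IGFBP6 window alone. IGFBP1 and IGFBP7 had no entry in the promoter table.

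Depth ran from 17135288 to 21053257 expected counts per culture. The labels call the cells epithelial, yet all 7 epithelial markers (EPCAM, CDH1 and 5 keratins) were below 1 TPM in every culture, whereas the 5 mesenchymal markers summed to 4344 to 5127 TPM, and of 3 receptor genes used to class breast tumours, ESR1 and PGR had no count while ERBB2 averaged 27.5 TPM in ACM and 28.8 TPM in UCM. Of 8 adipocyte markers, ADIPOQ, LEP, CIDEC and RETN had no count and FABP4, PLIN1 and LPL had at most 3 counts per group, while CFD averaged 5.06 TPM in ACM and 3.37 TPM in UCM. The replicates were not equally alike. Chi-square per degree of freedom over the tested genes was 2.32 between UCM replicates 2 and 3, and 13.3 to 21.8 for the other pairs within a group, so no pair agreed within sampling noise. Nothing in the labels says whether the replicates were separate passages, so p-values measure the spread between these wells, which may be technical. In bulk RNA, fewer cells of a kind and less RNA per cell cannot be told apart.

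Each member was compared between ACM and UCM to ask whether the cells' own supply of IGF carriers and of the proteases that open them differed between the media. By adjusted p-value, 4 members were higher in ACM: PAPPA2 (3.14-fold), PAPPA (1.62-fold), IGFBP7 (1.55-fold) and IGFBP4 (1.45-fold). None was lower by that rule, although IGFBP3, by far the most abundant of the family, had 0.679 times the UCM level in ACM. Levels are given as CPM, read counts scaled to library size with TMM factors, to compare 1 member between cultures, and as TPM, which also divides by transcript length, to compare genes. In edgeR's quasi-likelihood test, with calls made where the adjusted p-value was 0.05 or less, 3.35% of the 14451 tested genes were higher, 2.21% lower and 5.56% either. Of the 9 members, 7 had enough counts to be tested. These 7 had a median log2 FC of 0.54, against -0.01 over all tested genes, with 5 above and 2 below zero. Over all tested genes, 6954 were above zero and 7497 below.

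**Figure D1:**
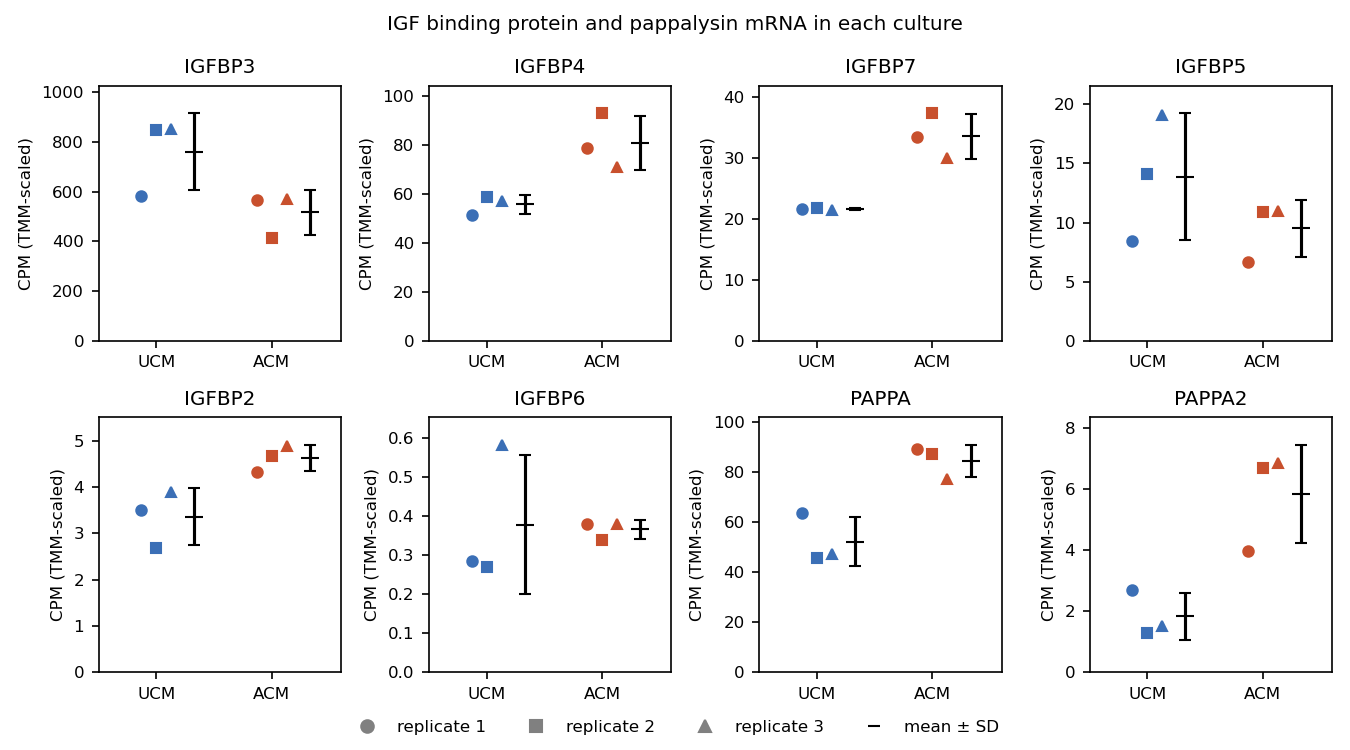
Level of 8 members in each culture, in TMM-scaled CPM from a zero baseline, with 1 symbol per replicate number, UCM in blue, ACM in red and the group mean ± SD in black (n = 3 each). The ACM points lie above all UCM points for IGFBP4, IGFBP7, IGFBP2, PAPPA and PAPPA2 and below them for IGFBP3.

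IGFBP3 is the main IGF carrier of blood and was the member with the highest level in every culture. The gene (ENSG00000146674) has 5 exons and lies on the minus strand of chromosome 7, from 45912245 to 45921874 (here and for the other genes, GENCODE 44 on GRCh38). In ACM replicates 1, 2 and 3 its CPM was 566, 414 and 570, against 582, 847 and 852 in the UCM replicates. The highest ACM value was just under the lowest UCM value, so the groups were apart by a small margin, and UCM replicate 1 sat closer to ACM than to the other UCM cultures. Mean CPM was 516 ± 89.1 with ACM against 760 ± 154 with UCM (SD over 3 cultures per medium). The log2 FC was -0.56 with a standard error of 0.19, an unadjusted p = 0.0201 and an adjusted p = 0.134 from edgeR. IGFBP3 was thus not called at the adjusted p-value. In the same edgeR fit it also missed the thresholds the study used, a change of 0.58 on the log2 scale besides an unadjusted p-value of 0.05 or less. It met them without ACM replicate 1 (log2 FC -0.62), ACM replicate 3 (-0.64) or UCM replicate 1 (-0.71). Without UCM replicate 1 the adjusted p-value of edgeR was 0.0239, DESeq2 gave an adjusted p = 0.0054, and over the 14 other settings the adjusted p-value from edgeR, DESeq2 or limma lay between 0.0054 and 0.360.

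IGFBP4, a carrier that mostly restrains IGF action until PAPPA cuts it, rose in ACM. The gene (ENSG00000141753) has 4 exons and lies on the plus strand of chromosome 17, from 40443450 to 40457725. The ACM cultures had 78.8, 93.1 and 71.0 CPM, the UCM cultures 51.6, 58.7 and 57.0 CPM. Every ACM culture was above every UCM culture, with ACM replicate 2 the highest. Mean CPM was 80.9 ± 11.2 with ACM against 55.8 ± 3.69 with UCM (SD over 3 cultures per medium). The log2 FC was 0.54 with a standard error of 0.10 and an adjusted p = 0.0173 in edgeR. The adjusted p-value of edgeR was 0.0568 without ACM replicate 2, 0.0557 without UCM replicate 2 and 0.0520 without UCM replicate 3.

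IGFBP7, a secreted protein also known from the walls of tumour vessels, was the member whose call was least sensitive to the settings. The gene (ENSG00000163453) has 5 exons and lies on the minus strand of chromosome 4, from 57030773 to 57110385. Its CPM was 33.5, 37.3 and 30.0 under ACM, whereas UCM gave 21.7, 21.7 and 21.4. The UCM cultures were almost level with each other, and all 3 ACM cultures stood above them. Mean CPM was 33.6 ± 3.68 with ACM against 21.6 ± 0.163 with UCM (SD over 3 cultures per medium). Its log2 FC of 0.64 had a standard error of 0.10 and an adjusted p = 0.0076 in edgeR. It passed under all 14 other settings, with a log2 FC between 0.55 and 0.71. Its last 386 bases overlap POLR2B on the opposite strand. The summed counts of the pair were whole numbers, to within 0.02, in 6 of 6 cultures, while those of IGFBP7 alone were not whole in 5, so RSEM had divided some reads between these genes.

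The remaining carriers were expressed at low levels. IGFBP2, a carrier abundant in fetal life and in many tumours, lies on chromosome 2 from 216632828 to 216664436 (ENSG00000115457). Cultures in ACM had 4.32, 4.67 and 4.89 CPM, those in UCM 3.50, 2.69 and 3.90 CPM. The ACM values were all above the UCM values, yet the log2 FC of 0.46 (95% interval -0.01 to 0.93) had an adjusted p = 0.224 from edgeR and none of the 14 other settings brought it to 0.05. By TPM the IGFBP2 values overlapped, at 5.39, 6.11 and 6.59 in ACM and 5.46, 4.12 and 4.92 in UCM. IGFBP5, a carrier that binds the extracellular matrix, lies 7668 bases from IGFBP2 on the opposite strand, with its end facing the end of IGFBP2 (ENSG00000115461, 216672105 to 216695549). IGFBP5 had 6.69, 10.9 and 11.0 CPM with ACM against 8.42, 14.1 and 19.1 CPM with UCM, and the groups overlapped. The log2 FC of IGFBP5 was -0.54 (95% interval -1.30 to 0.21, adjusted p = 0.368 from edgeR), an interval that holds values on both sides of zero. IGFBP5 passed in 2 of the 14 other settings and missed in 12. These 2 were the replicate number as a block (adjusted p = 0.0305 from edgeR) and the filter of at least 1 count in total (adjusted p = 0.0381 from edgeR). The lncRNA DIRC3-AS1 overlaps 1146 bases of IGFBP5 on the opposite strand, and its identifier was not among the genes of the deposited files.

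IGFBP6, a carrier that prefers IGF2, and IGFBP1, a carrier that the liver and the decidua make and that insulin lowers in liver, had too few counts to be tested. IGFBP6 (ENSG00000167779, chromosome 12 from 53097436 to 53102345) had 8, 6 and 7 counts with ACM against 6, 5 and 10 with UCM. IGFBP1 (ENSG00000146678) lies beside IGFBP3 on chromosome 7, from 45888360 to 45893660, with 18584 bases and no other gene between them. It had 3 counts in ACM replicate 2, 1 in UCM replicate 3 and 0 in the other 4 cultures. A count of 0 allows up to 3 counts, which is 0.143 to 0.175 CPM at these depths, so IGFBP1 was at or about the limit of detection in every culture while its neighbour IGFBP3 was the most abundant member. Such limits cover counting error only.

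Both pappalysins were higher in ACM by CPM. PAPPA (ENSG00000182752) has 22 exons over a long stretch of chromosome 9, from 116153791 to 116402321. With ACM its CPM was 89.3, 87.0 and 77.3, with UCM 63.6, 45.8 and 47.2. All ACM cultures were above all UCM cultures, and UCM replicate 1 was again the UCM culture nearest to ACM. Mean CPM was 84.5 ± 6.38 with ACM against 52.2 ± 9.89 with UCM (SD over 3 cultures per medium). The log2 FC of PAPPA was 0.69 with a standard error of 0.13 and an adjusted p = 0.0186 in edgeR. It stayed between 0.61 and 0.87 when any 1 library was omitted, but the adjusted p-value from edgeR was above 0.05 without ACM replicate 1 or 2 or UCM replicate 2 or 3, at up to 0.0780. The antisense gene PAPPA-AS1 overlaps PAPPA by 2450 bases and was given 25.3 and 38.9 counts in UCM replicates 1 and 2 and none elsewhere. Adding those counts to PAPPA, a choice made after seeing the data, moved the log2 FC to 0.66 with an adjusted p = 0.0206 in edgeR.

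PAPPA2, which is best known from placenta and from growth during childhood, showed the widest difference of the 9 genes at a far lower level. The gene (ENSG00000116183) has 23 exons on chromosome 1, from 176463171 to 176845601. It had 84, 119 and 126 counts with ACM against 57, 24 and 26 with UCM, which is 3.99, 6.70 and 6.84 CPM against 2.70, 1.29 and 1.51 CPM. The groups did not overlap, with ACM replicate 1 and UCM replicate 1 the nearest pair. Mean CPM was 5.84 ± 1.61 with ACM against 1.83 ± 0.757 with UCM (SD over 3 cultures per medium). The log2 FC of PAPPA2 was 1.65 with a standard error of 0.32 and an adjusted p = 0.0191 in edgeR. The adjusted p-value of edgeR was 0.0685 to 0.0862 without ACM replicate 2 or 3 or UCM replicate 2 or 3. On the TPM scale its values overlapped, at 0.80, 0.99 and 2.17 in ACM and 0.44, 0.19 and 0.88 in UCM. RSEM's effective length for PAPPA2, the divisor of TPM, was 4560 bases in ACM replicate 3 and 2467 bases in UCM replicate 3, against 7047 to 9403 bases in the other 4 cultures. With these lengths as offsets the log2 FC was 1.55 (adjusted p = 0.181 from edgeR), and limma-trend on log2(TPM + 1) gave 0.61 (adjusted p = 0.234).

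Read against the whole table, 4 of the 7 tested members were higher at the adjusted p-value where 3.35% of all tested genes were, and 0 were lower. Because the set was chosen with earlier results of these data known, this contrast is a description and not a test. IGFBP3 was the 1 member lower at an unadjusted p-value of 0.05 or less, a rule that 11.5% of tested genes met downward and 11.9% upward, and the 1 member that DESeq2 called lower after adjustment. With the study's thresholds applied to this edgeR fit, and not to the authors' own table, PAPPA2, PAPPA and IGFBP7 passed upward, as did 4.12% of all tested genes, and 0 members passed downward, as did 1.71%. IGFBP4 missed the fold threshold, which it met without ACM replicate 3 (log2 FC 0.62), and IGFBP7 fell short of it without ACM replicate 2 (log2 FC 0.55). CPM did not overlap between the groups for 5 members that were higher and 1 that was lower, against 13.9% and 15.0% of all tested genes (28.9% in either direction).

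By length-scaled level, the order in UCM was IGFBP3 (477 ± 90.1 TPM), IGFBP4 (41.5 ± 2.19), IGFBP7 (27.1 ± 0.515), PAPPA (7.01 ± 1.42), IGFBP2 (4.83 ± 0.674), IGFBP5 (3.33 ± 1.28), IGFBP6 (0.797 ± 0.326), PAPPA2 (0.503 ± 0.349) and IGFBP1 (SD, n = 3 each). IGFBP2 and IGFBP5, and IGFBP6 and PAPPA2, had overlapping ranges over the UCM cultures, so their order is not resolved. In ACM the first 6 places were the same, from IGFBP3 at 319 ± 59.1 TPM to IGFBP5 at 2.26 ± 0.582 TPM (SD, n = 3 each). PAPPA2 (1.32 ± 0.742 TPM) then came before IGFBP6 (0.90 ± 0.156 TPM), but its range overlapped those of both neighbours. IGFBP3 was 11.5 times IGFBP4 in UCM and 5.37 times IGFBP4 in ACM by mean TPM.

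The make-up of the carrier mRNA differed accordingly. IGFBP3 held 83.3, 87.1 and 86.9% of the summed TPM of the 7 carriers in UCM replicates 1, 2 and 3, and 76.4, 67.3 and 77.9% in ACM. Its share was thus lower in each ACM culture than in any UCM culture, with ACM replicate 2 the lowest. IGFBP4 held 7.59 ± 0.972% in UCM and 14.1 ± 3.39% in ACM, and IGFBP7 held 5.01 ± 1.03% and 9.86 ± 2.03% (SD, n = 3 each). The sum over the 7 carriers was 448, 603 and 613 TPM in UCM and 457, 373 and 458 TPM in ACM, so the summed level overlapped between the groups. Without IGFBP3 it was 74.9, 78.0 and 80.0 TPM in UCM and 108, 122 and 101 TPM in ACM, with no overlap. These sums combine members already described and were given no test of their own.

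**Figure D2:**
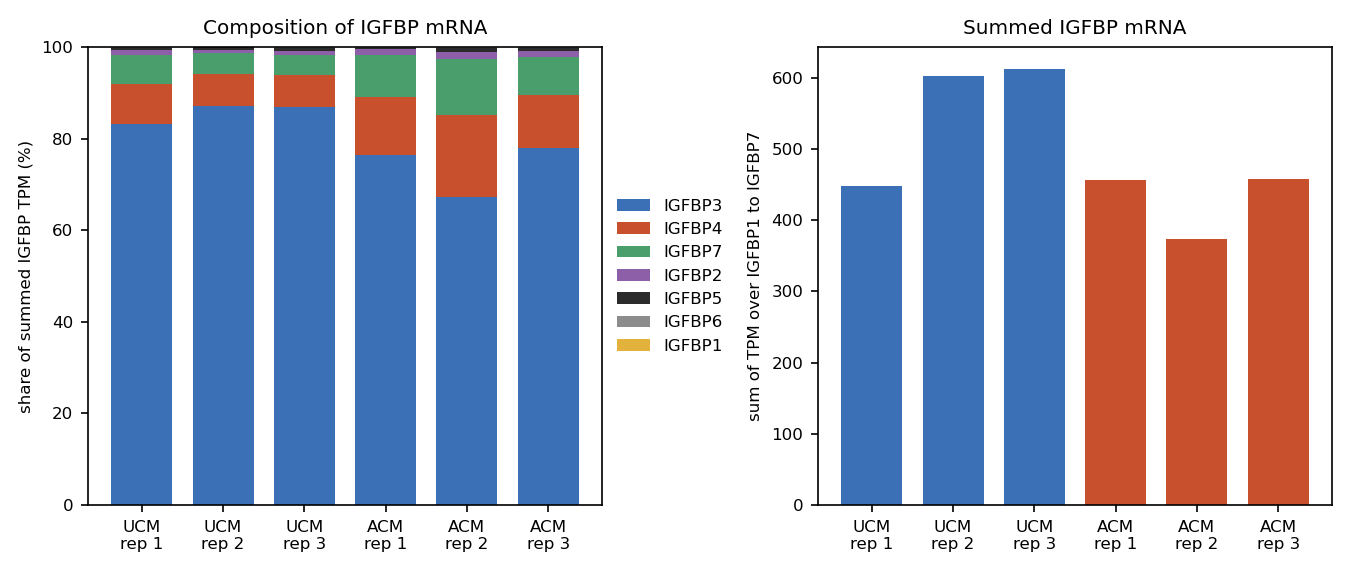
Left, share of each of the 7 IGFBPs in their summed TPM, in percent, 1 stacked bar per culture; right, the summed TPM itself, UCM in blue and ACM in red, both from a zero baseline. The IGFBP3 share is 83.3 to 87.1% in UCM and 67.3 to 77.9% in ACM, while the summed level overlaps between the media.

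Ratios to PAPPA set the carrier and the inhibitor beside the protease. The ratio of IGFBP4 to PAPPA by TPM was 4.90, 5.94 and 5.10 in ACM and 4.52, 7.11 and 6.70 in UCM, and these ranges overlapped. The ratio of STC2 to PAPPA was 39.6, 45.5 and 35.9 in ACM and 60.0, 76.7 and 72.8 in UCM, without overlap. That of STC1 to PAPPA had the opposite direction by its mean, at 5.43, 15.8 and 5.88 in ACM and 3.85, 5.60 and 5.48 in UCM, and overlapped. The STC2 ratio reuses PAPPA, already described as higher in ACM, while STC2 mRNA itself overlapped between the media. All of these are ratios of mRNA and were given no test of their own. Neither secreted protein nor protease activity was measured in these files.

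The other genes of the IGF system were read from 3 hand-made lists. Of 14 ligand, receptor and adaptor genes, 8 were tested, and all 8 had a log2 FC above zero, with a median of 0.27. Over all 14451 tested genes, 6954 were above zero. At an unadjusted p-value of 0.05 or less in edgeR, 4 of the 8 were higher and 0 lower, against 11.9% and 11.5% of all tested genes. DESeq2 called 2 of the list in all, and over all genes 762 higher and 444 lower. At the adjusted p-value from edgeR, 2 were higher and 0 lower, against 3.35% and 2.21% of all tested genes. These 2 were GRB10, an adaptor that dampens insulin and IGF receptor signaling (log2 FC 0.43, standard error 0.09, adjusted p = 0.0309 from edgeR), and SHC1, an adaptor that links receptors to the Ras pathway (log2 FC 0.27, standard error 0.07, adjusted p = 0.0428 from edgeR). GRB10 and SHC1 each passed in 7 of the 14 other settings. The receptor IGF1R had 60.5 ± 5.73 CPM with ACM against 50.9 ± 8.73 CPM with UCM (SD over 3 cultures per medium), and its log2 FC was 0.25 (95% interval -0.03 to 0.53, adjusted p = 0.265 from edgeR). Without UCM replicate 1 its log2 FC was 0.40, with an adjusted p = 0.0232 in edgeR. IGF2R, which clears IGF2, had a log2 FC of 0.12 and INSR, the insulin receptor, 0.15 (adjusted p = 0.572 and 0.575 from edgeR). Without UCM replicate 1 the log2 FC of IGF2R was 0.27, with an adjusted p = 0.0403 in edgeR. The direction of INSR turned with TPM in place of counts.

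The ligands were at or near the limit of detection. IGF1 had at most 3 counts in any culture and INS had none. IGF2 had 10, 44 and 7.18 counts with ACM against 6.21, 5 and 2 with UCM, too few to pass the filter, and most of the ACM counts came from replicate 2. Carriers and receptors were thus measured in cells with little IGF mRNA of their own.

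Of 20 genes for pappalysin inhibitors and for other proteases that cut IGFBPs, 14 were tested and 6 had no count in any culture, among them PRG2, the precursor of another PAPPA inhibitor. At the adjusted p-value from edgeR, 3 were higher and 1 was lower, against 3.35% and 2.21% of all tested genes. The median log2 FC was 0.59. The higher ones were ADAM12, a membrane metalloprotease that cuts IGFBP3 and IGFBP5 (log2 FC 0.42, adjusted p = 0.0120), MMP2, gelatinase A (log2 FC 0.75, adjusted p = 0.0212), and MMP3, stromelysin (log2 FC 2.88, adjusted p = 0.0329). The gene called lower was ADAMTS1, a secreted metalloprotease of the ADAMTS family (log2 FC -0.75, standard error 0.17, adjusted p = 0.0474 from edgeR). ADAMTS1 passed in 9 of the 14 other settings, but in only 1 of the 6 with a library left out, where the adjusted p-value from edgeR reached 0.175. DESeq2 called 9 of the 14, and over all genes 762 higher and 444 lower, against 484 and 320 in edgeR. Without UCM replicate 2 none of these genes passed.

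STC1 showed how far 1 culture can weigh. With ACM its CPM was 155, 448 and 140, with UCM 82.1, 80.8 and 84.5, so that every ACM culture was above UCM and ACM replicate 2 was far above the rest. STC1 had a log2 FC of 1.58 with a standard error of 0.54 and an adjusted p = 0.180 in edgeR. Without ACM replicate 2 it was 0.83, with an adjusted p = 0.0018 in edgeR. STC2 was at 714, 794 and 604 CPM with ACM against 795, 746 and 765 CPM with UCM, and its log2 FC was -0.13 (95% interval -0.34 to 0.08, adjusted p = 0.464 from edgeR). STC2 mRNA thus overlapped between the media at a level well above that of PAPPA.

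Other genes whose proteins carry an IGFBP-like domain at the N-terminus formed the last list, 13 genes of which 7 were tested (HTRA1 is on the protease list as well). None passed at the adjusted p-value from edgeR, as 5.56% of all tested genes did. At an unadjusted p-value of 0.05 or less in edgeR, 0 were higher in ACM and 1 was lower. Over all tested genes, 11.9% were higher and 11.5% lower by that rule. That gene is CCN1, a matrix protein and cell adhesion ligand, which was at -0.39 on the log2 scale (adjusted p = 0.0712 from edgeR) and was named after its values were seen. DESeq2 called 1 gene of this list. The median log2 FC of the list was -0.09, against 0.54 for the IGFBPs and pappalysins, and the difference between the lists was not tested.

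**Figure D3:**
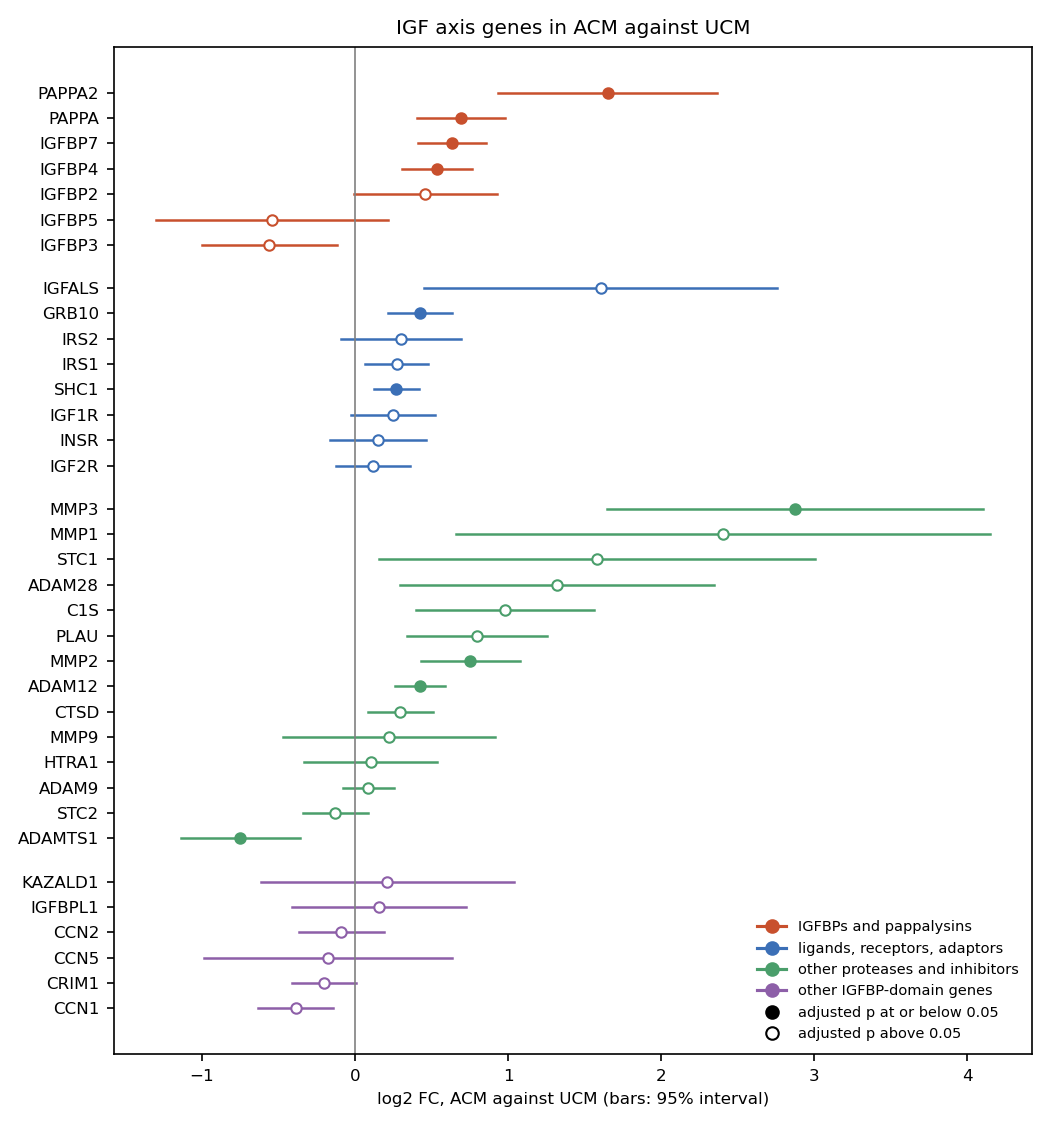
Log2 FC of ACM against UCM with its 95% interval from edgeR for every tested gene of the 4 lists, filled where the adjusted p-value is at or below 0.05 (HTRA1 drawn once, with the proteases). Filled points are IGFBP4, IGFBP7, PAPPA and PAPPA2 among the members, GRB10 and SHC1 among the adaptors, and ADAM12, MMP2, MMP3 and ADAMTS1 among the proteases, of which ADAMTS1 alone lies below zero.

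Genes that most resembled the 4 called members over the 6 cultures were found by Pearson's r of log2 CPM among 12258 protein-coding genes. For IGFBP4 the nearest were IQANK1, GARRE1 and TNFRSF11B (r = 0.999, 0.998 and 0.997). For IGFBP7 they were WDTC1, SMIM3 and MBTPS1 (r = 0.998 each), for PAPPA NRP2, PLEKHA8 and ZMIZ2 (r = 0.995, 0.995 and 0.990), and for PAPPA2 RALGPS2, MIA3 and PALM2AKAP2 (r = 0.998, 0.997 and 0.996). With 6 points in 2 groups such values are common. An r above 0.9 was reached by 652 genes for IGFBP4, 734 for IGFBP7, 517 for PAPPA and 448 for PAPPA2. Among the members, r was 0.973 between IGFBP4 and IGFBP7, 0.917 between PAPPA and PAPPA2, and -0.91 between IGFBP3 and PAPPA.

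**Figure D4:**
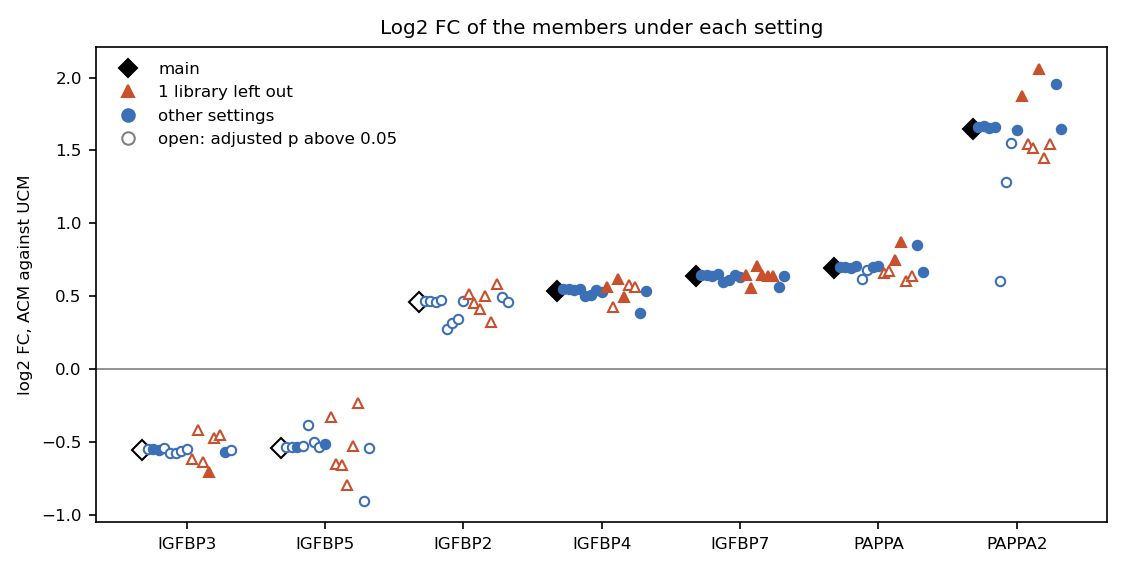
Log2 FC of the 7 tested members with all 6 libraries in edgeR (diamonds), with 1 library left out (triangles) and under the other settings (circles), open where the adjusted p-value was above 0.05. No member changed sign, IGFBP7 is filled throughout, and PAPPA2 spreads from 0.61 to 2.06.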

How the data were processed

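Per the labels and the paper's methods, RNA of 6 BT-549 cultures was polyA-enriched and read in pairs, after which the authors used Trim Galore for trimming, STAR for alignment to GRCh38 and RSEM for quantification. Versions and the annotation are not given in the sources used here. The authors deposited an expected count per gene and culture, not scaled for library size, and a TPM value scaled by RSEM's effective length, which was deposited beside it in bases. A further deposited table holds the authors' own DESeq2 comparison (fold changes and p-values) and was not used. Of 63140 identifiers, 61547 matched GENCODE 44 by identifier and version, which gave symbols and positions. Expected counts were rounded and tested in R 4.3.3 with edgeR 4.0.16 (TMM, filterByExpr, glmQLFit with robust = TRUE, glmQLFTest) on the medium, with no covariate. The p-values of the 14451 genes that passed the filter were adjusted by Benjamini-Hochberg. The coefficient of biological variation was 0.115. The script was tested on simulated data. Standard errors are the log2 FC over the root of its F statistic.

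The members and lists were chosen with earlier results of these data known. Named genes are the 9 members, IGF1, IGF2, IGF1R, IGF2R, INSR, STC1 and STC2, up to 5 called genes per list, and the 3 genes most alike each called member. The alternatives were RLE size factors, DESeq2 1.42.0, a minimum of 1 count summed over libraries, a minimum of 10 in each library, limma-trend (limma 3.58.1) on log2 TPM with 1 or 0.1 added, effective lengths as offsets, the replicate number as a block and each library left out. After seeing the data, 2 more were added, PAPPA with its antisense counts, and leaving out ACM replicate 2 and UCM replicate 1 together.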

Additional observations from a re-analysis of the deposited data

How the results depend on the processing

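No tested member changed direction under the 14 other settings or the 2 chosen after seeing the data, and IGFBP7 alone passed in all 14. With 1 library omitted, between 1 and 4 members were called higher and between 0 and 1 lower. IGFBP7 was the only one called without ACM replicate 2, UCM replicate 2 or UCM replicate 3. On TPM, 2 members were called higher with 1 added and 2 with 0.1 added (IGFBP4 and IGFBP7). DESeq2 called 1 member lower (IGFBP3), as did leaving out both ACM replicate 2 and UCM replicate 1, chosen after seeing the data (1, IGFBP3), and the filter of at least 1 count in total called 2 (IGFBP3 and IGFBP5). Whether the replicate numbers pair the cultures is not settled. The r of same-numbered deviations was 0.318, 0.035 and 0.177, and that of the other pairs -0.314 to 0.196. Each ACM culture correlated best with its own number, except ACM replicate 3, which was nearer to UCM replicate 2 (0.196). With the replicate number as a block, 1 member was called lower (IGFBP5, adjusted p = 0.0305 from edgeR), and over all genes 909 were called higher and 703 lower, against 484 and 320 without the block. Over all genes, DESeq2 called 762 higher and 444 lower, the filter of at least 1 count 1045 higher and 679 lower, TPM with 1 added 210 and 121, TPM with 0.1 added 221 and 128, and effective length offsets 272 and 134. With 1 library omitted these counts lay between 125 and 738 and between 62 and 572. Of the ligand, receptor and adaptor genes, 4 were called with the filter of at least 1 count and 4 without both libraries, 0 on either TPM scale and 0 with effective lengths, and 0 to 4 with 1 library left out. Of the protease and inhibitor genes, DESeq2 called 9, 8 were called without both libraries, and 0 (without UCM replicate 2) to 5 (without UCM replicate 1) with 1 library left out. Of the other IGFBP-domain genes, where 0 were called, DESeq2 called 1, the filter of at least 1 count 2 and the block 1. INSR reversed on TPM, to -0.0062 with 1 added and -0.0207 with 0.1 added. The causes were not tested. The depth limits IGFBP1, IGFBP6, IGF1 and IGF2, which could not be tested, and the low counts of PAPPA2 and IGFBP2.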
